A study of Homo sapiens with 12 samples.

Results

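The host genes of small nucleolar RNAs (snoRNAs) were followed through depletion of MED26 in HEK293T cells, an established line of human embryonic kidney origin with the large T antigen of SV40. The 10 listed hosts were GAS5, SNHG1, SNHG3, SNHG4, SNHG5, SNHG8, SNHG12, EPB41L4A-AS1, TAF1D and ZFAS1. Every probe set whose annotation names one of them was taken, which gave 31 probe sets of 54613 tested, and all 10 hosts were found. The probe sets fall into 3 kinds. For 9 of them the annotation names the host alone, for 13 it names the host with small RNAs of its introns, 29 of them snoRNAs, and the remaining 9 name SNHG4 together with the protein-coding gene MATR3. Unless stated otherwise, the account below rests on the 22 probe sets of the first 2 kinds, which cover all 10 hosts, and the 9 shared with MATR3 are described on their own.

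MED26 belongs to Mediator, a complex that links transcription factors to RNA polymerase II. Cells in the knockdown groups had been transfected with 25 nM of an siRNA against MED26 (s18074, s18075 or s18076), and control cells with 25 nM of non-targeting siRNA. Total RNA was taken after 48 h, and biotinylated cRNA from 300 ng of it was hybridised to Affymetrix arrays, 3 in each of 4 groups. The labels of the control arrays do not all name the same non-targeting siRNA, whereas the protocol names 1, so the controls may differ in it. The replicates are numbered without a statement that they were separate cultures, so p-values reflect how far arrays of a group differed, and that variation may be technical only. Values are log2 of the deposited intensities, a change is knockdown minus control, and a probe set counts as called where its limma p, adjusted by the Benjamini-Hochberg method over the 54613, was under 0.05. The 3 siRNA comparisons share their control arrays. Since RNA came from whole cultures, fewer cells of a kind and less RNA per cell cannot be told apart.

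snoRNAs are short nucleolar RNAs that guide chemical modification of ribosomal and other RNAs. Box C/D snoRNAs (SNORD) direct ribose methylation and box H/ACA snoRNAs (SNORA) direct pseudouridylation. In human cells most are cut out of the introns of longer RNAs, their hosts, so a host's transcription also supplies its snoRNAs. Some hosts encode proteins of the translation machinery or nucleolus, and others, such as GAS5 and the SNHG genes, are classed as noncoding and give spliced RNAs that are often short-lived in the cytoplasm. Many noncoding hosts begin with a stretch of C and T at their first bases, the start shared with ribosomal protein genes. The labelling used here starts from poly(A) RNA, and it cannot be told from the annotation whether a probe set that names a host with its snoRNAs reads the spliced host or an intron.

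The start sites of the hosts were compared because the hosts moved together. Each sequence runs 5′ to 3′ on the gene's strand, from 60 bases before the annotated start in the RefSeq window table (GRCh38.p14). The RefSeq gene spans of SNHG12 and ZFAS1 reach further upstream than these starts. Capitals mark the longest run of C and T that touches the first bases and, upstream, the letters TATATAAG.

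SNHG5, chr6:85678694-85678793, minus strand: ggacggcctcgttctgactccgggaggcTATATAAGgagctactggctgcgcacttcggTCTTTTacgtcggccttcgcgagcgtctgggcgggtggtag

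SNHG12, chr1:28581834-28581933, minus strand: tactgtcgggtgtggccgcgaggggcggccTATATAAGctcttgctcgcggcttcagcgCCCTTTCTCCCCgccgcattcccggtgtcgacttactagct

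ZFAS1, chr20:49278582-49278681, plus strand: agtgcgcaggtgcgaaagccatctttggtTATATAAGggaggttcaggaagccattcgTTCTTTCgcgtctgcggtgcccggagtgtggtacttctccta

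SNHG4, chr5:139274041-139274140, plus strand: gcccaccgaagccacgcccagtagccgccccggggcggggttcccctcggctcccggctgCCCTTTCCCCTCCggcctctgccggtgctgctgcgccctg

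SNHG8, chr4:118278702-118278801, plus strand: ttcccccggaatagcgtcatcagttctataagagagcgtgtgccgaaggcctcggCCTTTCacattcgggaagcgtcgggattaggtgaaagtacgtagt

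The letters TATATAAG, searched on both strands (CTTATATA on the other) from 250 bases before to 50 after the start, were found in the windows of 3 of the 10 hosts and in 0.678% of 27305 genes with a window in the RefSeq table. They began 32 bases before the start in SNHG5, 30 in SNHG12 and 31 in ZFAS1. It is not recorded whether TATATAAG was chosen before the host windows were seen, so its shares are descriptive and were not tested. A run of at least 6 bases of C and T on the sense strand, lying between 10 bases before and 20 after the start, was present in 8 of 10 hosts and in 30.8% of all windows. Such a run need not include the start itself: it began 4 bases after it in SNHG1 and 2 bases after it in SNHG3. In GAS5 and EPB41L4A-AS1 the longest run had 4 bases, and in GAS5 it began 11 bases after the start. A run of at least 8 was present in 3 hosts, SNHG4, SNHG12 and TAF1D, and in 12.9% of all windows. The E-box letters CACGTG were in 0 of the 10 windows and in 7.43% of all. The letters CCAAT, on either strand, were in 2 host windows, those of GAS5 and SNHG5, and in 35.7% of all. The letters TATAAA, on either strand, were in that of SNHG1 and in 12% of all. These matches describe the letters in a window and say nothing about binding there.

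The knockdown was checked first. MED26 kept 46.6% of its control signal with s18074, 67.5% with s18075 and 47.3% with s18076. The array medians of all probe sets lay close together, which the normalization of the deposited values largely fixes in advance, so this is no check of the arrays. No 2 arrays held identical values. In the mean of the siRNAs, 8.18% of all 19775 genes with a one-gene probe set were lower and 8.14% higher. Of 9 measured marker genes of the HEK293T state, 3 fell (NEFM, NEFL and EYA1). The summed intensity of the 9 ran from 16090 to 18739 in the control arrays. It ran from 14622 to 15477 with s18074, from 13212 to 14986 with s18075 and from 12522 to 14580 with s18076. Of 10 fibroblast markers 2 fell (COL3A1 and LUM), and their summed intensity was 1003 to 1052 in the controls and 931 to 1106 over the knockdown arrays. Of 9 differentiated kidney epithelium markers 1 rose (LRP2). Of 9 blood markers 0 were called by limma in the mean or with any siRNA. At an unadjusted p under 0.05 there were 0 in the mean, 2 with s18074, 0 with s18075 and 1 with s18076. The part of these shifts in the host results was not tested.

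Of the 10 hosts, 9 had a probe set that was lower with every MED26 siRNA, and SNHG5 was the exception. In the mean of the 3 siRNAs, 23 of the 31 probe sets were called lower and 0 higher, against 6.29% of all probe sets called lower, 6.22% called higher and 12.5% called in either direction. Without those shared with MATR3, 21 of 22 were lower, with a median change of -0.44 and a range from -0.72 to -0.23, and each of the 10 hosts had at least 1 called probe set. The exception was 1 of 3 probe sets of TAF1D. What was left of the control signal ran from 60.7% to 85.4% over these 22, with a median of 73.7%. The median change of all 19775 genes was -0.0015. Probe sets of 1 host read transcripts of the same gene and are not independent of each other.

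Each siRNA gave the same direction on its own. With s18074, 18 of the 31 probe sets were lower, against 3.72% of all probe sets lower and 3.73% higher. With s18075, 20 were lower, against 5.26% lower and 4.68% higher, and with s18076 23, against 5.01% lower and 5.78% higher. None of the 31 was called higher with any siRNA. The 22 probe sets not shared with MATR3 kept a median of 78.0% of the control signal with s18074, 76.7% with s18075 and 65.5% with s18076. There were 17 probe sets called lower with all 3 siRNAs, against 1.61% of all probe sets, and they came from those 9 hosts. All 9 knockdown arrays lay below all 3 control arrays in 22 of the 31, against 4.81% of all probe sets.

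**Figure D1:**
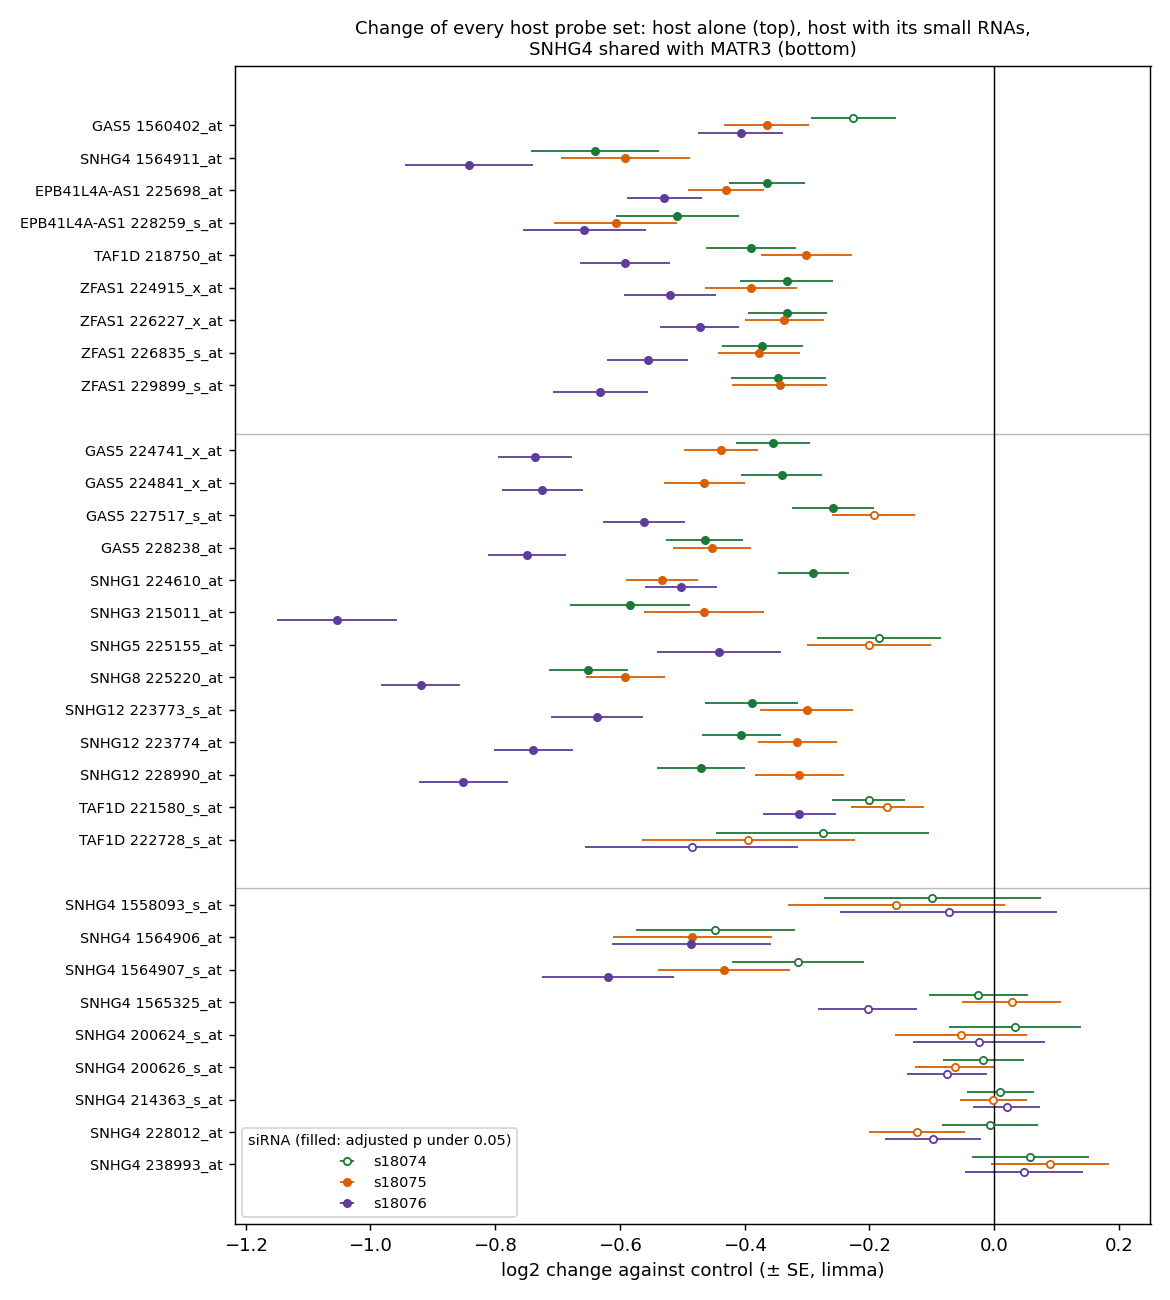
Log2 change against control (± SE) of all 31 host probe sets with each of the 3 siRNAs, with filled points for an adjusted p under 0.05. The probe sets that name the host alone or with its small RNAs lie to the left of 0 with all 3 siRNAs, while 7 of the 9 shared between SNHG4 and MATR3 were not called with any siRNA.

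The noncoding hosts of box C/D snoRNAs were GAS5, SNHG1, ZFAS1 and SNHG5. GAS5, first described as a transcript that accumulates in growth-arrested cells, carries 8 named snoRNAs in its introns (SNORD44, SNORD47, SNORD74, SNORD76, SNORD77, SNORD79, SNORD80 and SNORD81). On its brightest probe set, 224741_x_at, the control arrays read 12.90, 12.85 and 12.82, those with s18074 12.54, 12.48 and 12.49, those with s18075 12.47, 12.40 and 12.38, and those with s18076 12.17, 12.11 and 12.08. The 4 groups did not overlap, though s18074 and s18075 nearly touched, and s18076 was the lowest. The changes were -0.35, -0.44 and -0.74, each ± 0.06 (SE, limma, adjusted p = 0.00312, 0.000506 and 1.08e-05). The other 3 probe sets that name GAS5 with its snoRNAs fell by 0.51, 0.34 and 0.56 in the mean of the siRNAs, and the 1 that names GAS5 alone, 1560402_at, fell by 0.33 ± 0.06. Of the 5, 3 were called with each siRNA. The exceptions were 1560402_at with s18074, at -0.23 (adjusted p = 0.0681), and 227517_s_at with s18075, at -0.19 (adjusted p = 0.0933).

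SNHG1 is the host of 8 further box C/D snoRNAs, among them SNORD22 and SNORD25 to SNORD31. Its only probe set, 224610_at, read 12.39, 12.46 and 12.34 in the controls and 12.11, 12.11 and 12.10 with s18074. It read 11.88, 11.89 and 11.82 with s18075 and 11.91, 11.86 and 11.91 with s18076. The knockdown arrays all lay below the controls, with s18074 nearest to them and the other siRNAs overlapping lower down. SNHG1 fell by 0.29, 0.53 and 0.50, each ± 0.06.

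ZFAS1, a noncoding RNA named for its place antisense to the start of ZNFX1 and the host of SNORD12 and its relatives, is read by 4 probe sets that name it alone. All 4 fell with each siRNA. In 226227_x_at the controls read 12.41, 12.48 and 12.49, and the arrays with s18074, s18075 and s18076 read 12.09, 12.17 and 12.12, then 12.06, 12.15 and 12.16, then 11.91, 12.05 and 12.02. The knockdown arrays were all below the controls, s18074 and s18075 overlapped, and s18076 lay under both. Over the 4 probe sets the mean changes ran only from -0.44 to -0.38.

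SNHG5, the host of SNORD50A and SNORD50B, had the smallest mean change of the 9 noncoding hosts. Its probe set 225155_at read 13.80, 13.91 and 13.98 in the controls and 13.55, 13.78 and 13.81 with s18074. With s18075 it read 13.50, 13.82 and 13.77, and with s18076 13.36, 13.53 and 13.49. The arrays with s18074 and s18075 overlapped the controls, and those with s18076 lay below. SNHG5 fell by 0.28 ± 0.08 in the mean of the siRNAs (limma, adjusted p = 0.0442), but the call was lost when any of 10 of the 12 arrays was left out, with an adjusted p of up to 0.175, and after quantile normalization was applied once more (adjusted p = 0.0761). With s18076 alone it fell by 0.44 ± 0.10 (adjusted p = 0.0129). A separate probe set, 244669_at, names SNORD50A and SNORD50B without the host and fell by 0.53 ± 0.08 with s18076 (adjusted p = 0.000995), while its values of -0.09 with s18074 and -0.17 with s18075 were not called.

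**Figure D2:**
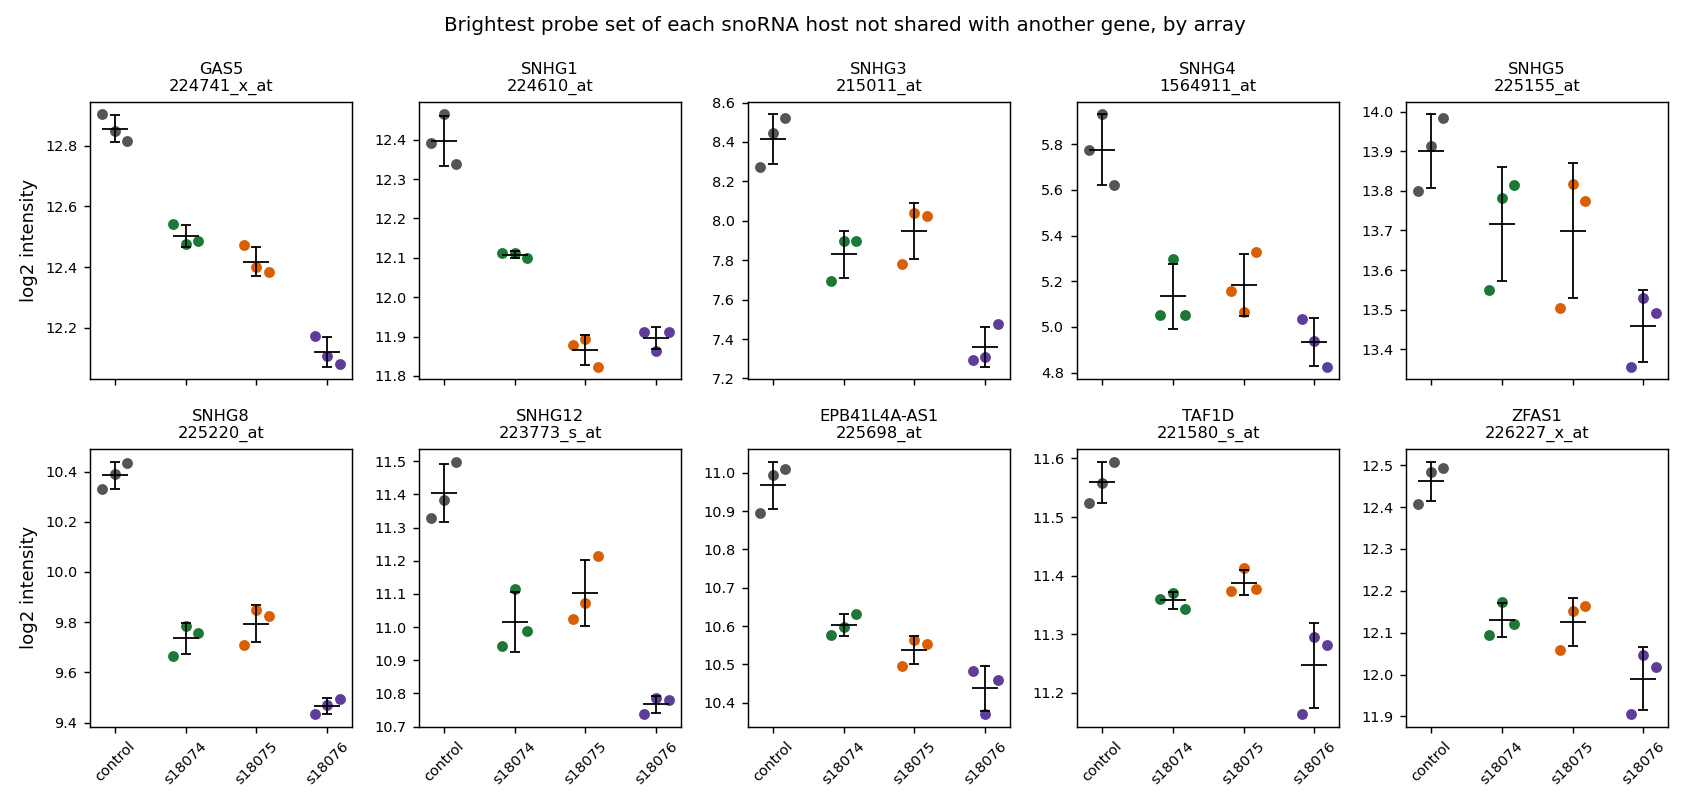
Log2 intensity on each of the 12 arrays for the brightest probe set of each host that is not shared with another gene, with bars for the group mean and SD (n = 3); each panel has its own vertical scale that does not start at 0. The s18076 arrays lie below all others in 8 of the 10 panels, all but those of SNHG1 and SNHG5, and only in SNHG5 do knockdown arrays overlap the controls.

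The 3 largest mean falls were in SNHG8, SNHG3 and SNHG4, hosts of box H/ACA snoRNAs. SNHG8, the host of SNORA24, read 10.33, 10.39 and 10.44 in the controls (225220_at) and 9.67, 9.78 and 9.76 with s18074. It read 9.71, 9.85 and 9.83 with s18075 and 9.43, 9.47 and 9.49 with s18076, so that the knockdown groups lay well under the controls, s18074 and s18075 overlapped, and s18076 was the lowest. SNHG8 fell by 0.72 ± 0.05 in the mean of the siRNAs (limma, adjusted p = 4.67e-06), to 60.7% of control. With the single siRNAs it fell by 0.65, 0.59 and 0.92, each ± 0.06.

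SNHG3 carries SNORA73A, an unusually abundant H/ACA RNA that takes part in the cleavage of the ribosomal RNA precursor. Its probe set 215011_at read 8.28, 8.45 and 8.52 in the controls, 7.69, 7.90 and 7.90 with s18074, 7.78, 8.04 and 8.03 with s18075, and 7.29, 7.31 and 7.48 with s18076. The replicate 1 array was the lowest in each group, and the groups with s18074 and s18075 overlapped. SNHG3 fell by 0.70 ± 0.08 in the mean (adjusted p = 0.000126) and by 1.05 ± 0.10 with s18076, which left 48.2% of the control signal, the least of the 22 probe sets not shared with MATR3.

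SNHG12 is read by 3 probe sets that name it with SNORA16A, SNORA44 and SNORA61, and 2 of them, 223773_s_at and 223774_at, were designed on the same sequence record. In 228990_at the controls read 10.64, 10.63 and 10.54, and the arrays with s18074 read 10.21, 10.15 and 10.04. Those with s18075 read 10.37, 10.23 and 10.27 and those with s18076 9.80, 9.79 and 9.66. The order from high to low was control, s18075, s18074 and s18076, without overlap, although s18075 and s18074 nearly touched. Its changes were -0.47, -0.31 and -0.85, each ± 0.07. Both other probe sets also fell with each siRNA, by 0.44 and 0.49 in the mean.

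EPB41L4A-AS1, which lies antisense to EPB41L4A and carries SNORA13, is read by 2 probe sets that name it alone. The brighter, 225698_at, read 10.90, 10.99 and 11.01 in the controls, 10.58, 10.60 and 10.63 with s18074, 10.50, 10.56 and 10.55 with s18075, and 10.48, 10.37 and 10.46 with s18076. The controls stood apart from all 9 knockdown arrays, which stepped down from s18074 over s18075 to s18076 without overlapping. The 2 probe sets fell by 0.44 ± 0.05 and 0.59 ± 0.08 in the mean, and each was called with every siRNA.

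SNHG4, the host of the H/ACA snoRNA once called U19, has 1 probe set that names it alone. This probe set, 1564911_at, was dim: 34.1% of all probe sets lay at or below its level. It read 5.77, 5.93 and 5.62 in the controls, 5.05, 5.30 and 5.05 with s18074, 5.16, 5.07 and 5.33 with s18075, and 5.04, 4.94 and 4.83 with s18076. The knockdown arrays were all lower than the controls, s18074 and s18075 overlapped, and s18076 lay just under both. SNHG4 fell by 0.69 ± 0.08 in the mean (limma, adjusted p = 0.000223).

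The 9 probe sets that name SNHG4 with MATR3, which encodes a nuclear matrix protein and has the same annotated start in RefSeq as the host, behaved unevenly. They had a median change of -0.07, and 2 of 9 were lower, 1564906_at by 0.47 ± 0.10 and 1564907_s_at by 0.46 ± 0.09, both designed on the same record. The call of 1564906_at was lost without control replicate 2 (adjusted p = 0.0631). The brightest, 214363_s_at, read 13.53, 13.56 and 13.55 in the controls and between 13.52 and 13.59 in the knockdown arrays, a change of 0.01 ± 0.04 with a 95% confidence interval from -0.09 to 0.11. The probe set designed on the RefSeq mRNA of MATR3, 200626_s_at, changed by -0.05 ± 0.05 and was not called. The 1 probe set that names MATR3 alone, 242260_at, gave another value and fell by 0.79 ± 0.08 (0.71, 0.60 and 1.08 with the single siRNAs). Probe sets of this pair of genes therefore disagreed, and the annotation does not settle which transcript each one reads.

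TAF1D is the protein-coding host of the list. It encodes a subunit of SL1, the factor that places RNA polymerase I on ribosomal RNA genes, and its introns carry SNORA1, SNORA8, SNORA18, SNORA32, SNORA40 and SNORD5 with the microRNA gene MIR1304. The probe set that names TAF1D alone and was designed on its RefSeq mRNA, 218750_at, read 9.10, 9.07 and 9.05 in the controls and 8.58, 8.71 and 8.76 with s18074. It read 8.82, 8.69 and 8.81 with s18075 and 8.49, 8.57 and 8.38 with s18076, all below the controls. TAF1D fell there by 0.43 ± 0.06 (limma, adjusted p = 0.000536). The brightest of its probe sets, 221580_s_at, fell less, by 0.23 ± 0.05, and was called with s18076 but not with the other siRNAs. The third, 222728_s_at, changed by -0.38 ± 0.14 and was not called (adjusted p = 0.101), but on replicates 2 and 3 only it was, at -0.39 (adjusted p = 0.0106). Its replicate 1 array was the lowest in every group, at 11.19 beside 11.54 and 11.67 in the controls.

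The siRNAs were then compared with each other. The control means do not enter these differences, while the control arrays do enter the shared estimate of the spread. An F test between the 3 siRNAs called 10 of the 31 probe sets, against 5.74% of all probe sets, and all 10 name a host with its small RNAs: 4 of GAS5, 3 of SNHG12, and those of SNHG1, SNHG3 and SNHG8. The count fell to 6 without s18076 replicate 3 and to 3 on replicates 2 and 3 only. Where a difference from s18076 was called, s18076 was the lower. Against s18074, 7 probe sets were lower and 0 higher, where 1.19% of all probe sets were lower and 1.02% higher. Against s18075, 10 were lower and 0 higher, where 1.92% of all were lower and 3.06% higher. All 22 estimates of s18076 minus s18074 were below 0, and 21 of 22 of s18076 minus s18075, with SNHG1 at 0.03. No probe set of SNHG1, SNHG4, SNHG5, EPB41L4A-AS1 or ZFAS1 was called in either comparison. Between s18075 and s18074 only SNHG1 was called, at -0.24 ± 0.06 (limma, adjusted p = 0.0431), where 1.86% of all probe sets were lower and 1.03% higher.

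SNHG3 showed the greatest distance between siRNAs, with -0.47 ± 0.10 for s18076 minus s18074 and -0.59 ± 0.10 for s18076 minus s18075. In SNHG12 (228990_at) the same differences were -0.38 and -0.54, each ± 0.07, and in GAS5 (224741_x_at) -0.38 and -0.30, each ± 0.06. SNHG8 differed by -0.33 ± 0.06 from s18075 and was not called against s18074, at -0.27 (95% confidence interval from -0.41 to -0.13, adjusted p = 0.0508). The signal of MED26 itself differed between s18076 and s18074 by 0.02 ± 0.07, with a 95% confidence interval from -0.13 to 0.17. With s18075 more MED26 signal was left, and the host medians were close to those of s18074. This signal is RNA and not protein, and whether the level of MED26 bears on the host differences was not tested. None of the 9 probe sets that name a host alone was called by the F test. In the pairwise comparisons, 218750_at, which names TAF1D alone, was called lower with s18076 than with s18075, at -0.29 ± 0.07 (limma, adjusted p = 0.0381).

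**Figure D3:**
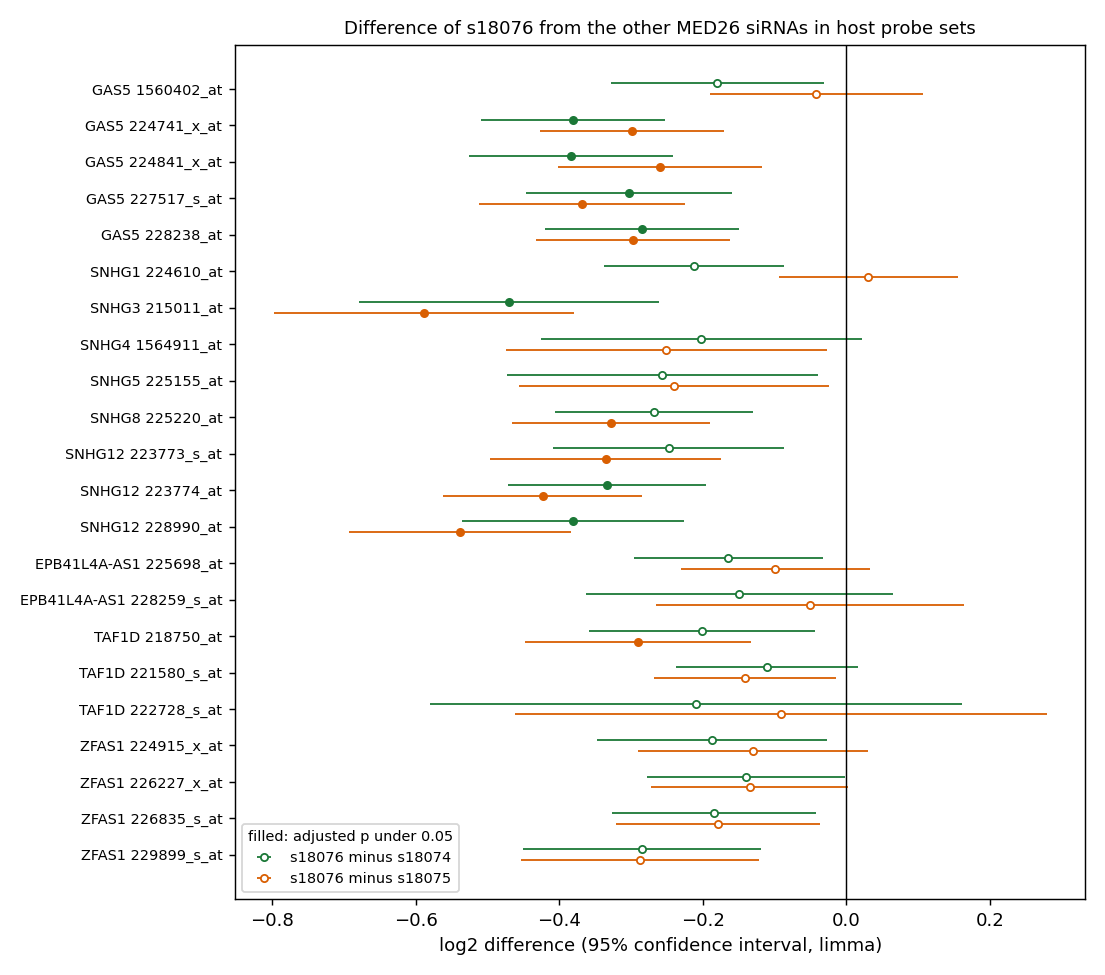
Log2 difference of s18076 from s18074 and from s18075, with the 95% confidence interval from limma, for the 22 host probe sets not shared with MATR3; filled points have an adjusted p under 0.05. All points but 1 lie below 0, and the filled ones are 7 of the differences from s18074 and 10 of those from s18075.

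Other snoRNA hosts and the genes that act on snoRNAs give the setting. Of 18 further noncoding hosts, 14 were found with 22 probe sets. In the mean of the siRNAs 12 of the 22 were lower and 0 higher, with a median of -0.24. Of all probe sets, 6.29% were lower and 6.22% higher. Counting 1 brightest one-gene probe set for each gene, 3 of 5 were lower, against 8.18% of all genes. These were SNHG32 by 0.41 ± 0.06, SNHG17 by 0.34 ± 0.05 and SNHG19 by 0.31 ± 0.06. SNHG32 and SNHG17 were called with each siRNA, and SNHG19 with s18076 only. SNHG7, named here after its values were seen, fell by 0.70 ± 0.09 on 1 of its 2 probe sets and gave -0.13 on the other.

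Hosts that encode proteins were counted apart, and their difference from the noncoding hosts was not tested. Of 26 ribosomal protein hosts only 11 had a one-gene probe set. Of the 11, 0 were called by limma (1 at an unadjusted p under 0.05), with a median of -0.02. All but RPL27A and RPLP2 had control means from 14.29 to 14.85, near the top of the intensity range, where a change may be understated. Of all genes, 8.18% were lower and 8.14% higher. Of 20 measured other coding hosts, 4 were lower (20%) and 0 higher. They included the cell cycle regulator gene RCC1, whose RefSeq gene overlaps that of SNHG3, at -0.47 ± 0.05, and RABGGTB, which encodes a subunit that prenylates Rab proteins, at -0.37 ± 0.05. EEF2, which encodes translation elongation factor 2, had a mean of -0.61 that rests on 1 siRNA: s18075 gave -1.82, s18074 0.02 and s18076 -0.02. EP400, named after its values were seen, had a mean of -0.30 and was also called with s18075 only, at -0.66. It gave -0.09 with s18074 and -0.16 with s18076.

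The mRNAs of proteins that build or degrade these RNAs were called in both directions. Of 18 measured snoRNP and assembly genes, 2 were lower and 2 higher, 11.1% in each direction. That was close to the shares of all genes, 8.18% lower and 8.14% higher. The assembly factor gene RPAP3 rose by 0.31 ± 0.06. SNU13, which encodes a core protein of box C/D particles, fell by 0.29 ± 0.05, and GAR1, for a core protein of H/ACA particles, fell by 0.25 ± 0.06. None of these was called with every siRNA: RPAP3 was called with s18075 and s18076, SNU13 with s18076, and GAR1 with s18074 and s18076. Nonsense-mediated decay is the pathway that degrades many spliced noncoding hosts. Of its 11 measured genes, 4 were lower (36.4%) and 1 higher (9.09%). Those lower were led by SMG9 at -0.48 ± 0.12, UPF2 at -0.43 ± 0.05 and SMG5 at -0.29 ± 0.06. UPF2 was called with each siRNA, SMG5 with s18074 and s18075 only, and SMG9 with s18076 only. With s18074, s18075 and s18076, 2, 2 and 2 of the 11 were lower (18.2%) and 0, 1 and 1 higher. Of all genes 5.35%, 6.78% and 6.53% were lower and 4.89%, 6.14% and 8.13% higher. Of 20 genes of RNA polymerase I and its factors, 3 were lower (15%) and 4 higher (20%). Those lower were POLR1D at -0.33 ± 0.05, POLR1H at -0.28 ± 0.06 and POLR1G at -0.26 ± 0.06. Those higher, named after their values were seen, were POLR2L at 0.25, RRN3 at 0.24, TBP at 0.21 and POLR1A at 0.18.

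**Figure D4:**
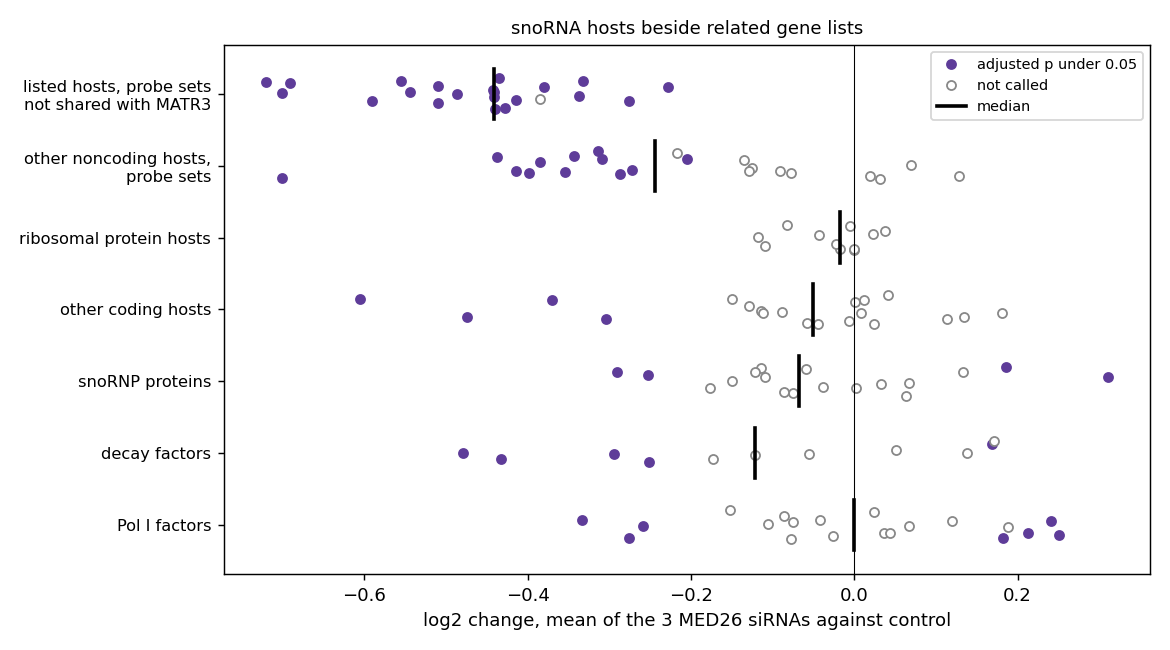
Log2 change in the mean of the 3 MED26 siRNAs for the listed hosts and related lists; each point is a probe set in the top 2 lists and the brightest one-gene probe set of a gene in the others, filled where the adjusted p is under 0.05, and the bar is the median. The listed hosts have a median of -0.44, and the ribosomal protein hosts have a median of -0.02 with no filled point. Most of the ribosomal protein hosts were read near the top of the intensity range.

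The genes whose pattern over the 12 arrays was most like the mean of the hosts were found by the mean absolute difference of centred log2 values. The nearest 6 were BCAT1 (0.037), which encodes an enzyme of branched-chain amino acid breakdown, GPATCH4 (0.039), the chromatin remodelling subunit gene PHF10 (0.040), the activin receptor gene ACVR2B (0.043), EMC3 (0.043), a subunit gene of the endoplasmic reticulum membrane complex, and CRTAP (0.051). The mean profile used the brightest probe set of each host, which for SNHG4 is one shared with MATR3.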

How the data were processed

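The authors deposited 1 linear intensity per probe set and array. The submitters' processing notes name RMA and affy 1.24.2. RMA forces the arrays onto a shared distribution, so a change in total RNA per cell is not visible. A log2 scale had been assumed in the plan; because the files hold linear values, they were log2-transformed with no pseudocount. Of 54675 probe sets, 62 controls were left out.

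Groups come from the sample titles. With limma 3.58.1 (R 4.3.3), all 54613 probe sets were fitted with 4 group means and 8 residual degrees of freedom (lmFit, contrasts.fit, eBayes), and p-values were adjusted over all of them by the Benjamini-Hochberg method. For the mean of the siRNAs, these are treated as fixed. On simulated data for that comparison, 200 of 54613 probe sets were given a log2 change of 0.5 or 1. Of changes of 0.5, 65% were called, and of changes of 1, 96%, and 11 of 172 calls were false. The real comparison called 6833 probe sets, so its cut-off differs and these rates may not carry over. Arrays give no read depth, and 3 arrays a group limit the precision.

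The members and gene lists were chosen with earlier results of these data known. Named genes are MED26, every probe set of a host, up to 3 called members of each list with the largest mean change, and the 6 genes nearest the mean host profile, with open reading frame names passed over. The brightest one-gene probe set stood for a list gene. Names come from the platform annotation, which can be old: 41091 probe sets name 1 gene and 1801 several. Start sites come from RefSeq (GRCh38.p14), 1 window a gene. Alternatives were 2 further scalings, a pseudocount of 16, a filter on the dimmest 40% of probe sets, 1 probe set a gene, other variance models, array weights, blocks for the replicate, smaller sets of arrays and a threshold of 0.01.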

Additional observations from a re-analysis of the deposited data

Results flagged for a closer look

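The probe sets below differed between the 3 siRNAs by the limma F test over all 54613 probe sets (Benjamini-Hochberg adjusted). In GAS5 the adjusted p was 0.00369 for 224741_x_at, 0.00868 for 224841_x_at, 0.00892 for 227517_s_at and 0.0165 for 228238_at. Each of these 4 was lower with s18076 than with both other siRNAs, by 0.26 to 0.38 on the log2 scale.

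In SNHG12 it was 0.00142 for 228990_at, 0.00305 for 223774_at and 0.0368 for 223773_s_at. SNHG3 had an adjusted p of 0.0052 and SNHG8 of 0.0147, again with the lowest arrays under s18076. SNHG1, at 0.0416, had another order: s18075 and s18076 lay together below s18074. Groups of 3 arrays are too small for a test of single outlying arrays.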

How the results depend on the processing

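Counts of called host probe sets kept within 1.5 times their value under most alternatives. Allowing 1 one-gene probe set for each gene leaves 5 of the hosts to test, and all 5 were called in the mean and with each of the 3 siRNAs, but 1 between siRNAs. The 10 calls between siRNAs became 3 on replicates 2 and 3 only and 6 at an adjusted p under 0.01. With each array left out in turn, they ran from 6 (without s18076 replicate 3) to 10, and those of the mean from 21 to 23, of s18074 from 15 to 19, of s18075 from 14 to 20 and of s18076 from 22 to 23. Further scalings shifted the median of all probe sets by -0.0030 and -0.0034. With a variance trend and robust fit, 7 rather than 4 other coding hosts and 7 rather than 4 snoRNP genes were called, and 1 rather than 0 ribosomal protein hosts was called there, with a pseudocount of 16 and without the dimmest 40% of probe sets.

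The direction turned only among uncalled probe sets shared by SNHG4 and MATR3. For 200624_s_at the change was 0.016 with array weights, 0.089 on replicates 2 and 3 only, and from -0.11 to 0.12 with 1 array left out. For 1558093_s_at it ran from -0.25 to 0.0026. The cause was not tested.

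Same-numbered arrays correlated in their deviations from the group means at 0.424 to 0.538 for replicate 1. For replicate 2 this was 0.049 to 0.262 and for replicate 3 0.086 to 0.251. Only 5 of 12 arrays were closest to their own number, so the numbers were not taken to pair the arrays. Replicate 1 arrays correlated with replicate 2 and 3 arrays of other groups at -0.483 to -0.142. Replicate 1 thus stood apart in every group, and the main fit has no term for it. With the replicate number as a block, 24 probe sets were called in the mean, 22 with s18074, 22 with s18075, 24 with s18076 and 12 between siRNAs, and TAF1D 222728_s_at was called (adjusted p = 0.00109).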

Other observations

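Within 1000 bases of a host's start, the RefSeq window table held a start on the opposite strand for 3 of the 10 hosts. The difference between host and neighbour was not tested. ZBTB37, whose start lies 665 bases from that of GAS5, gave a mean change of -0.18 ± 0.08 (limma, Benjamini-Hochberg adjusted p = 0.232). SLC3A2, which encodes the heavy chain of amino acid transporters and starts 224 bases from SNHG1, gave -0.10 ± 0.09 (adjusted p = 0.600). C11orf54, at 177 bases from TAF1D, fell by 0.30 ± 0.09 (adjusted p = 0.0449). Of the single siRNAs only s18074 gave a call for C11orf54, at -0.44 (adjusted p = 0.0272). Its values of -0.24 with s18075 and -0.22 with s18076 were not called. ZNFX1, the antisense neighbour of ZFAS1, is not in that table and gave -0.07 ± 0.08 (adjusted p = 0.689).

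The antisense partners looked at were EPB41L4A, GAS5-AS1 and ZNFX1, too few for a result about such partners as a group. With s18076, where 5.78% of all probe sets were higher, 2 were called higher, and with no other siRNA. EPB41L4A rose by 0.43 ± 0.08 (limma, adjusted p = 0.00326), and the dim GAS5-AS1 by 0.47 ± 0.09 (adjusted p = 0.00525). ZNFX1 gave -0.03 with s18076 and was not called. The mean changes of EPB41L4A and GAS5-AS1, 0.12 and 0.07, were not called.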
